A study of Mus musculus with 6 samples.

Results

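The genes described here are the matrix metalloproteinases (MMPs), the ADAMTS proteases and the tissue inhibitors of metalloproteinases (TIMPs) in osteoblasts (OBs) of BMP-2-induced ectopic bone. They were chosen by gene symbol alone, as *Mmp*, *Adamts* or *Timp* followed by a number, and comprised 46 of the 23284 genes measured (23 MMPs, 19 ADAMTS and 4 TIMPs). A collagen sponge with 2.5 μg of rhBMP-2 was implanted under the skin of *Col2.3*-ECFP mice, and ECFP+ OBs were sorted from the bone that formed, in 3 samples of day 10 and 3 samples of day 14. According to the methods, the mice were male and 12 to 16 weeks old, and every mouse of both days carried the *Col2.3*-ECFP transgene and received rhBMP-2. ECFP is driven by a fragment of the type I collagen promoter, so a sorted cell is one in which this promoter was active, and dead cells and cells carrying CD45 were removed in the sort. The samples are named biological replicates, and the sources used here do not give the number of mice behind each. The titles place the later 3 samples on day 14, which was used here, whereas their descriptions give days 14, 15 and 16 for replicates 1, 2 and 3.

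MMPs are zinc-dependent endopeptidases that are made as inactive precursors and cleave collagens, gelatins and other proteins of the extracellular matrix, either in solution or, in the membrane-type forms, at the cell surface. ADAMTS proteases are secreted relatives that trim procollagens, cleave large proteoglycans or act on microfibrils, and TIMPs bind the active sites of MMPs and of some ADAMTS proteases. In bone, OBs need these enzymes to process the collagen they deposit and to clear unmineralised matrix from surfaces. The bone pieces were themselves digested with collagenase before sorting, in 1 round for the day 10 samples and 2 rounds for the day 14 samples, so the day and the number of digestions cannot be told apart.

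The authors deposited 1 FPKM value (read fragments scaled to transcript length and sequencing depth) per gene and sample, and depth was estimated from the size of 1 read in the low values. The estimates ran from 4922581 to 7767900 reads on day 10 and from 4535920 to 7091886 on day 14, and 3 reads on 1000 bases corresponded to 0.386 to 0.661 FPKM. All 7 OB markers examined were above 0 in every sample, with *Col1a1* (type I collagen) at 17339 to 34157 FPKM on day 10 and 14151 to 21088 on day 14. All 7 had lower fitted values on day 14, 5 of them by over 2-fold (median log2 difference −1.69), and none had an adjusted limma p under 0.05. *Ibsp* (bone sialoprotein) was at 10072 to 25254 FPKM on day 10 and 3460.1, 15632 and 1293 on day 14, and *Alpl* (alkaline phosphatase) at 809 to 1129 and then 273, 1299.8 and 186. *Sp7*, the OB transcription factor osterix, was lower in each day 14 sample (9.79, 27.9 and 4.09 FPKM) than in any day 10 sample (73.7, 51.1 and 40.1 FPKM), with a log2 difference of −2.34 on the scale of FPKM + 0.1 and an adjusted p of 0.309 from limma. In the sums of chondrocyte and macrophage markers, day 14 replicate 2 stood apart from replicates 1 and 3 of that day. The correlations of log2 values across all genes tested did not set it apart. They were 0.93 between replicates 2 and 3, 0.9 between 1 and 3 and 0.883 between 1 and 2. Replicate 2 had the fewest genes above 0, with 16646 against 19698 and 17630 in replicates 1 and 3 of day 14. Leaving it out gave 76 genes with an adjusted limma p under 0.05, against 3 to 6 when any other sample was left out. The summed FPKM of the 11 chondrocyte markers listed was 1038 in replicate 2 and 114 and 73.8 in replicates 1 and 3, and that of the 7 macrophage markers listed was 19.1 against 237 and 607. On day 10 these sums ran from 416 to 845 for cartilage and from 35.1 to 128 for macrophages. Of the mural list, *Pdgfrb* was wholly above on day 14 (40.5, 47.8 and 66.6 FPKM, then 105, 77.8 and 97.9, with an adjusted p of 0.305 from limma), and of the endothelial list *Pecam1* (0.268 to 0.657, then 0.720 to 1.35) and *Emcn* (0 to 0.299, then 0.416 to 0.583). The summed mural markers ran from 317 to 676 FPKM on day 10 and 472 to 571 on day 14, and the summed endothelial markers from 1.35 to 3.11 and 2.90 to 6.09. Their highest genes were *Acta2* (243, 236 and 594, then 356, 380 and 465) and *Tek* (0.413 to 1.79, then 1.29 to 1.77). Of the neutrophil list, *S100a8* (3.33, 166 and 2.79, then 26.1, 0 and 22.3) and *S100a9* (3.64, 92.1 and 4.58, then 11.7, 0 and 28.8) were highest. *Ltf*, too low to be tested, was at 0.143 to 0.203 and then at 0 in every sample. The part of these cell types and of the OB markers in the differences described was not tested, and in these bulk samples fewer cells of a type and less RNA per cell cannot be told apart.

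The OBs carried a few of these genes at very high levels and most at low levels. Over the 6 samples, 10 genes had a mean of at least 100 FPKM, namely *Mmp2*, *Timp1*, *Mmp14*, *Timp2*, *Mmp13*, *Timp3*, *Mmp3*, *Mmp23*, *Adamts2* and *Adamts1*. A further 7 lay between 10 and 100 FPKM, 15 between 1 and 10 FPKM and 14 below 1 FPKM. FPKM is a level per length of transcript, so these levels can be set side by side between genes.

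**Figure D1:**
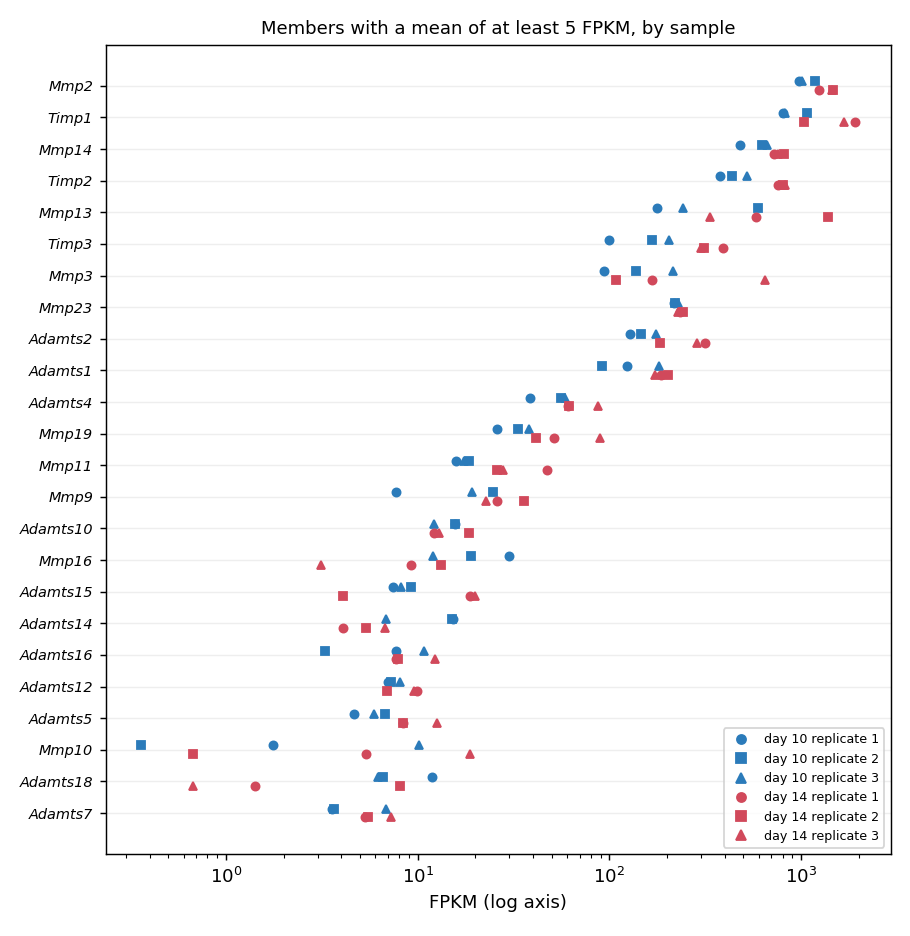
FPKM on a log axis of the 24 genes with a mean of at least 5 FPKM. Blue symbols are day 10, red symbols day 14, and circle, square and triangle are replicates 1, 2 and 3. For *Timp2*, *Timp3*, *Mmp11* and *Adamts5* all red symbols lie to the right of all blue ones, and for *Adamts14* all lie to the left, with day 14 replicate 3 at 6.79 and day 10 replicate 3 at 6.80 FPKM.

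Whether the level of each gene differed between day 10 and day 14 was tested with limma on log2(FPKM + 0.1), over 19526 genes with a mean above 0.1 FPKM. No MMP, ADAMTS or TIMP gene had an adjusted p under 0.05, and 3 of all genes tested had one (0.0154%). Of the 43 genes of the families that were tested, 9 were higher and 4 lower on day 14 at an unadjusted limma p under 0.05, whereas 5.6% of all genes were higher and 4.4% lower at that level. With a filter of a mean over 1 FPKM, 10 of 32 were higher and 3 lower, against 9.11% and 6.15% of all genes. Over 2-fold differences of FPKM + 0.1 were found in 5 genes with higher values on day 14 (*Timp3*, *Mmp13*, *Mmp10*, *Mmp12* and *Mmp1b*, background 5.25%). They were found in 4 with lower values (*Mmp16*, *Mmp7*, *Adamts14* and *Adamts18*, background 8.39%). *Mmp1b* and *Mmp7* rested on at most about 3.41 and 2.5 estimated reads in a sample.

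The days did not overlap in 15 of the 43 genes. All day 14 values lay above all day 10 values in 11 genes (7.59% of all genes tested) and below them in 4 genes (6.67% of all genes tested). The 11 were *Mmp2*, *Mmp14*, *Mmp23*, *Mmp19*, *Mmp11*, *Mmp17*, *Timp2*, *Timp3*, *Adamts2*, *Adamts4* and *Adamts5*, and the 4 were *Mmp7*, *Adamts14*, *Adamts17* and *Adamts3*. For each of them the two-sided exact permutation test gave p = 0.1, the smallest value that 3 samples against 3 allow. The background includes many genes with few reads. With a filter of a mean over 1 FPKM, 11 of 32 genes were wholly above and 3 wholly below, against 11.4% and 8.92% of all genes at that level. After scaling each sample to its upper quartile, which moved the median difference of all genes by −0.11 on the log2 scale, 5 genes were wholly above and 5 wholly below (background 3.29% and 10.7%), and after quantile normalization 6 were above and 4 below (background 8.46% and 8.94%). Of the 11 higher genes, *Timp2*, *Timp3*, *Mmp11*, *Adamts5* and *Mmp17* stayed separated under both scalings, while *Mmp2*, *Mmp14*, *Mmp23*, *Adamts2*, *Adamts4* and *Mmp19* overlapped under both. All 4 lower genes (*Mmp7*, *Adamts14*, *Adamts17* and *Adamts3*) stayed wholly below under both. For *Mmp7*, listed at 0 in every day 14 sample, upper quartile scaling could not give any other outcome. That scaling also raised the share of all genes wholly below. Without day 14 replicate 2, 18 genes were wholly above and 8 wholly below, against a background of 15.3% and 13.2%.

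The median log2 difference of the tested genes was 0.39, against −0.04 for all genes tested. With no threshold, 27 of the genes were higher and 16 lower on day 14, against 46.5% and 53.5% of all genes. The median was 0.39 for the 21 MMPs tested, 0.27 for the 18 ADAMTS and 0.79 for the 4 TIMPs.

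**Figure D2:**
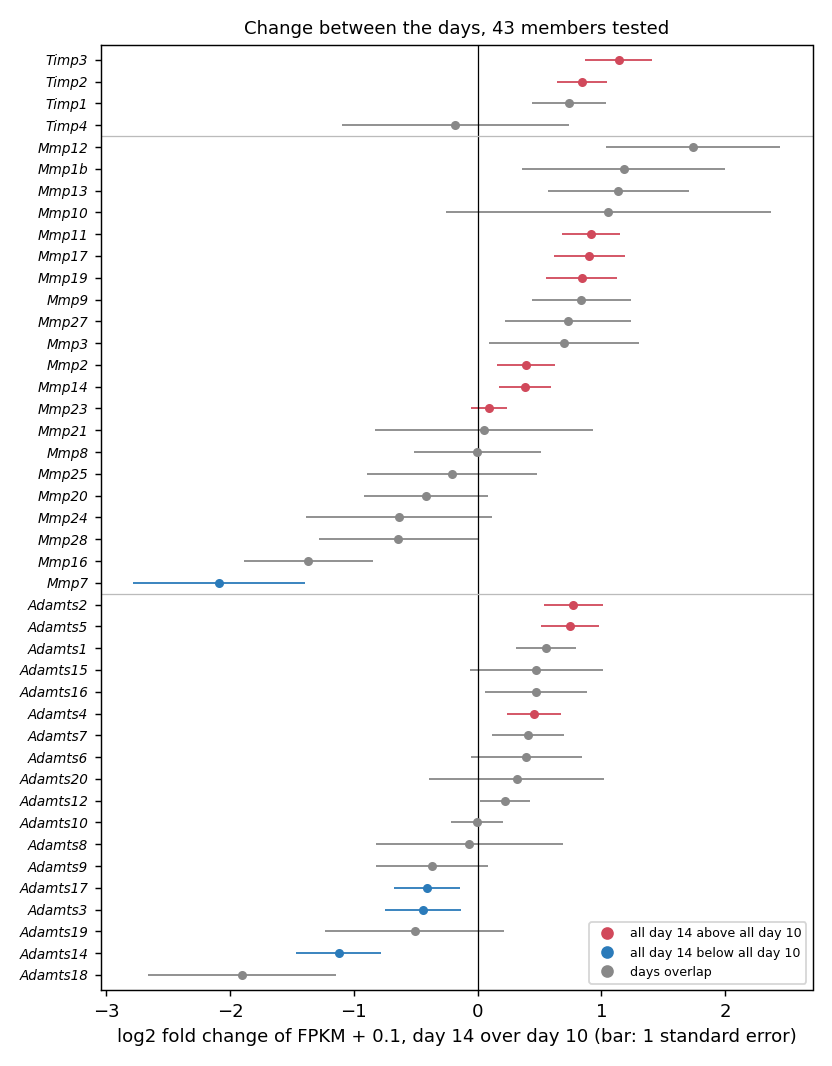
Log2 difference between day 14 and day 10 on the scale of FPKM + 0.1 for the 43 genes tested, with bars of 1 standard error from limma, grouped into TIMPs, MMPs and ADAMTS. Red marks the 11 genes with all day 14 values above all day 10 values, blue the 4 with all below, and grey those that overlap. *Timp3* has the highest value among the TIMPs at 1.14, and the value of *Mmp7* (listed at 0 in every day 14 sample) depends on the added 0.1 and is no estimate of a fold.

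The inhibitors were among the highest of these genes, and *Timp3* and *Timp2* had the smallest p-values of all 43. *Timp2*, which inhibits MMPs and also joins pro-*Mmp2* to *Mmp14* at the cell surface, lies at chr11:118301069-118355740 on the minus strand (mm10). It stood at 379, 437 and 524 FPKM on day 10 and 759.5, 804 and 821 FPKM on day 14 (447 ± 73.1 against 795 ± 31.5, SD, n = 3 each). The lowest day 14 sample was thus above the highest day 10 sample, and the 3 day 14 samples lay closer to each other than those of day 10. The log2 difference was 0.84 (SE 0.20), with an unadjusted p of 0.00277 and an adjusted p of 0.305 from limma.

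*Timp3*, the inhibitor that binds to the matrix and acts on ADAMTS proteases as well as MMPs, lies at chr10:86300372-86349506 on the plus strand. Its values were 99.96, 167 and 205 FPKM on day 10 and 390.4, 311 and 302 FPKM on day 14. Again no day 14 sample came down to the day 10 range. On the log2 scale the difference was 1.14 (SE 0.27), with an unadjusted p of 0.00261 and an adjusted p of 0.305 from limma. *Timp3* lies within *Syn3* on the opposite strand and shares 1733 exon bases with it, and the sources used here do not describe strand in the counting. *Syn3* was at no more than 0.854 FPKM in any sample, far below *Timp3*.

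*Timp1*, a soluble inhibitor secreted by many connective tissue cells, lies at chrX:20870166-20874735 on the plus strand and was the second highest of all these genes. It stood at 804, 1073 and 821 FPKM on day 10 and 1906, 1033 and 1677 FPKM on day 14. Replicates 1 and 3 of day 14 were above every day 10 sample, but replicate 2 was within the day 10 range, so the days overlapped (exact permutation p = 0.2, two-sided). With all samples the log2 difference was 0.74 (SE 0.30) with an adjusted p of 0.461 from limma, and without day 14 replicate 2 it was 1.00. *Timp4* was low, at up to about 12.4 estimated reads in a sample, with 0.676, 0.301 and 0.106 FPKM on day 10 and 0.543, 0 and 0.585 FPKM on day 14. It lies within *Syn2*, which was at a similar low level, and no direction was read from it.

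**Figure D3:**
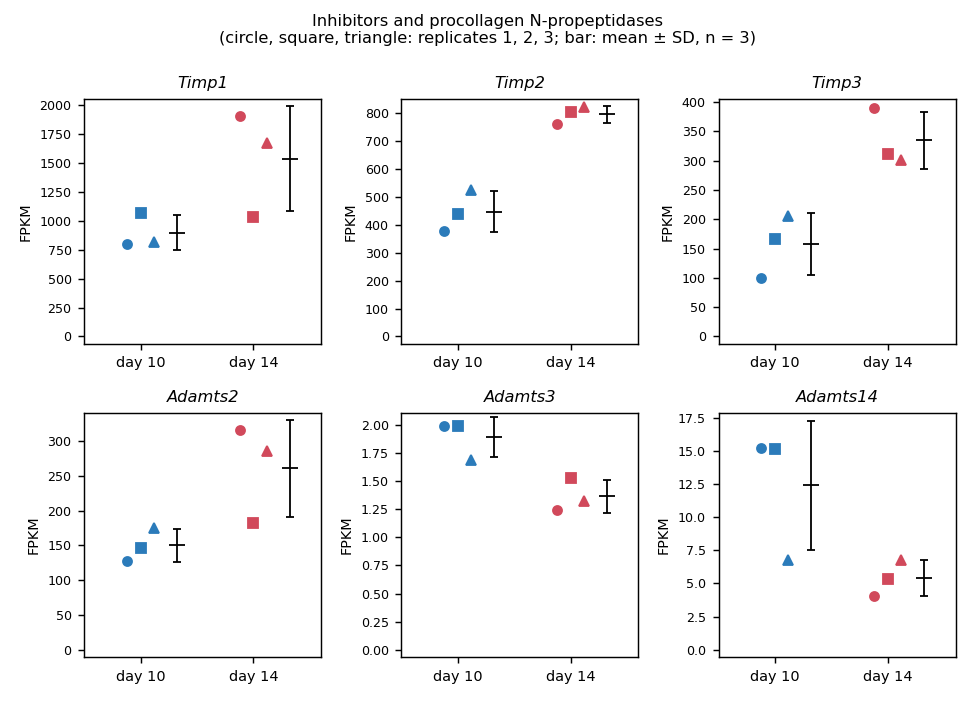
FPKM (linear axes) of 3 inhibitors in the upper row and of the 3 procollagen N-propeptidases in the lower row, with 1 symbol per sample and bars of mean ± SD (n = 3). For *Timp2* the day 14 samples lie at 759.5 to 821 FPKM, above the day 10 samples at 379 to 524, *Timp1* has day 14 replicate 2 (square, 1033) within the day 10 range, and *Adamts2* and *Adamts14* differ in opposite directions.

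*Mmp2*, or gelatinase A, was the highest of all the genes described (chr8:92827291-92853420, plus strand). It cleaves denatured collagen and is activated at the cell surface by *Mmp14*. *Mmp2* ranked 32 among all genes by mean FPKM on day 10 and 31 on day 14, at 979.8, 1184 and 1007 FPKM on day 10 and 1236, 1468 and 1449.6 FPKM on day 14. The days did not overlap, but the lowest day 14 value lay only just above the highest day 10 value. The log2 difference of 0.39 (SE 0.23) had an adjusted p of 0.633 from limma, and it was 0.26 after upper quartile scaling and 0.02 after quantile normalization.

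*Mmp14*, the membrane-type collagenase whose loss in mice causes severe skeletal defects, followed at chr14:54431612-54445364 (plus strand). Its values were 479, 628 and 661 FPKM on day 10 and 723, 812 and 756 FPKM on day 14. Each day 14 sample was above each day 10 sample, with a log2 difference of 0.39 (SE 0.21) and an adjusted p of 0.599 from limma. *Mmp2*, *Mmp14* and *Timp2* act together in one complex at the cell surface, and all of them were separated between the days in the FPKM as deposited, whereas only *Timp2* was also separated under both other scalings.

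The other membrane-type MMPs were far lower and did not go one way. *Mmp16* was at 29.9, 18.96 and 11.95 FPKM on day 10 and 9.26, 13.2 and 3.14 FPKM on day 14. Its log2 difference was −1.37 (SE 0.52) with an unadjusted p of 0.0289 and an adjusted p of 0.438 from limma, and day 14 replicate 2 overlapped with day 10. *Mmp17*, an MMP held to the membrane by a lipid anchor, had 1.74, 1.88 and 2.62 FPKM on day 10 and 3.53, 4.93 and 3.45 FPKM on day 14. Here the days were apart, with a log2 difference of 0.90 (SE 0.29), an unadjusted p of 0.0126 and an adjusted p of 0.366 from limma. *Mmp25* ran from 0.106 to 0.746 FPKM, *Mmp24* from 0 to 0.247 and *Mmp15* from 0.0537 to 0.150, with up to about 17.3, 3.11 and 1.88 estimated reads in a sample. *Mmp15* had too low a mean to be tested.

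*Mmp9*, or gelatinase B, is known in bone mainly from osteoclasts. It stood at 7.73, 24.7 and 19.1 FPKM on day 10 and 26.0, 35.9 and 22.6 FPKM on day 14, and the days overlapped through day 10 replicate 2 (log2 difference 0.84, SE 0.40, adjusted p of 0.536 from limma). Among the 7 osteoclast markers, *Ctsk* made up most of the sum, at 403 to 425 FPKM on day 10 and 574 to 614 on day 14. Of the defining osteoclast markers, *Calcr* stayed at or below 0.338 FPKM, *Ocstamp* at or below 0.727 and *Dcstamp* at or below 0.980 in every sample. *Acp5* was at 22.8, 35.1 and 23.8 FPKM on day 10 and 24.8, 18.3 and 37.7 on day 14.

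In the mouse, 10 MMP genes lie side by side in 427.1 kb of chromosome 9 (chr9:7272514-7699585), in the order *Mmp13*, *Mmp12*, *Mmp1b*, *Mmp3*, *Mmp1a*, *Mmp10*, *Mmp8*, *Mmp27*, *Mmp20* and *Mmp7*. The cluster holds all of the secreted collagenases and several of their activators. In these OBs the neighbours differed widely, with *Mmp13* and *Mmp3* above 90 FPKM in every sample and the others below 20 FPKM in every sample. The days overlapped for 9 of the 10 genes, and *Mmp7*, which was wholly below on day 14, was the exception (7.59% of all genes tested were wholly above and 6.67% wholly below).

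The 250 bases upstream of the start are shown for *Mmp13*, *Mmp3* and *Mmp10*, the 3 genes of the cluster with the highest means, because they share a layout that set them off from the propeptidase gene *Adamts2*, shown last (RefSeq, GRCm38.p6, each 5′ to 3′ on the plus strand). They lie at chr9:7272264-7272513, chr9:7445572-7445821, chr9:7502092-7502341 and chr11:50601835-50602084. Capitals mark the AP-1 letters TGANTCA, the TATA letters TATAAA and the RUNX letters TGTGGT (as ACCACA where the match is on the other strand), and none of the marked matches overlaps another.
Mmp13: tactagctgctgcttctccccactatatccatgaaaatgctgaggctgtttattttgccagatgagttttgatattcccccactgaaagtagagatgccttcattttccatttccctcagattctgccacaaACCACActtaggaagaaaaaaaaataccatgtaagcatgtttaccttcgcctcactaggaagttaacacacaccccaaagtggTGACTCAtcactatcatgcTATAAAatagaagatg
Mmp3: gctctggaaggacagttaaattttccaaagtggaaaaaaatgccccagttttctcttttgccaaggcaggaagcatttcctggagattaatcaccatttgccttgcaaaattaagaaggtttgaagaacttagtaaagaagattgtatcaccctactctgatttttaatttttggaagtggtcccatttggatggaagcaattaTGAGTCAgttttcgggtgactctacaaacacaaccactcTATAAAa
Mmp10: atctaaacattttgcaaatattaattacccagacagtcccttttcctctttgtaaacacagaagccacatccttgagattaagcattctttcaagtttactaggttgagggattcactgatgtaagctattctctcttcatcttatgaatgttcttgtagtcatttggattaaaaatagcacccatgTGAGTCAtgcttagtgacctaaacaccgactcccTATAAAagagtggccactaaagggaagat
Adamts2: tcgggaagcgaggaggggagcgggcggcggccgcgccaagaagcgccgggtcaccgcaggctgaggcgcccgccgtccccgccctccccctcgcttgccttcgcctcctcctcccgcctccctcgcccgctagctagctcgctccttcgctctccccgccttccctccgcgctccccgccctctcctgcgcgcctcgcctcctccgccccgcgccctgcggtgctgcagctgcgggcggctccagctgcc

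In *Mmp13* the first base of the AP-1 letters lies 35 bases and that of the TATA letters 16 bases upstream of the RefSeq start, with RUNX letters 118 bases upstream. In *Mmp3* these distances are 46 bases for AP-1 and 7 for TATA, and in *Mmp10* they are 63 and 29. The *Adamts2* window holds none of the 3 and is 78.0% G and C, against 40.4% for *Mmp13*, 37.6% for *Mmp3*, 37.2% for *Mmp10* and a median of 52.4% over all 32851 promoter windows. RefSeq windows were matched for 32 of the 46 genes. AP-1 letters, searched on both strands, were found in 8 of them, which all lie in the chromosome 9 cluster (*Mmp13*, *Mmp12*, *Mmp1b*, *Mmp3*, *Mmp1a*, *Mmp10*, *Mmp20* and *Mmp7*), and 6.75% of all windows hold them. TATA letters were found in 9 of the genes (12.4% of all windows) and RUNX letters in 6 (14.0% of all windows), *Mmp14* among them. These matches describe the sequence and do not show that a factor binds there, and despite the shared letters the levels of *Mmp13* and *Mmp10* in the same samples were far apart.

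*Mmp13*, collagenase-3, cleaves fibrillar collagen and is made by OBs and by hypertrophic chondrocytes (chr9:7272514-7283331, plus strand). It stood at 178, 595 and 242 FPKM on day 10 and 584, 1384 and 336 FPKM on day 14. Replicate 2 was the highest sample of each day, and day 10 replicate 2 was above day 14 replicates 1 and 3, so the days overlapped (exact permutation p = 0.3, two-sided). The log2 difference was 1.14 (SE 0.57) with an adjusted p of 0.563 from limma, and leaving out 1 sample at a time moved it between 0.59 and 1.64.

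The cartilage markers did not share 1 order across the samples. Of the 11 chondrocyte markers listed, 5 were highest in day 14 replicate 2, where *Mmp13* was highest, and 5 (*Col9a1*, *Col9a2*, *Col9a3*, *Col11a2* and *Matn1*) in day 10 replicate 1, where *Mmp13* was lowest. The hypertrophic markers *Ihh* and *Pth1r* were also highest in day 10 replicate 1. In day 14 replicate 2, *Col2a1* (type II collagen) was at 688 FPKM against 12.1 and 8.75 in replicates 1 and 3, *Col10a1* (the collagen of hypertrophic cartilage) at 67.4 against 2.99 and 0.194, and *Comp* at 1383 against 118 and 99.8. On day 10, *Col10a1* was at 14.3, 26.1 and 13.8 FPKM, and was highest in replicate 2 as well. Whether cartilage cells contributed to the *Mmp13* values was not tested.

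*Mmp3*, stromelysin-1, activates procollagenases and cleaves proteoglycans. Its values were 94.1, 137 and 215 FPKM on day 10 and 168, 108 and 650.1 FPKM on day 14. A single sample, day 14 replicate 3, carried the higher mean of that day: with it the log2 difference was 0.69 (SE 0.61, adjusted p of 0.779 from limma) and without it −0.06. *Mmp10*, the closely related stromelysin-2, was at 1.76, 0.362 and 10.1 FPKM on day 10 and 5.37, 0.671 and 18.7 FPKM on day 14. As for *Mmp3*, replicate 3 was the highest sample of each day. Its log2 difference of 1.06 had an SE of 1.31, and reads of *Mmp3* and *Mmp10* can be shared where the sequences are near-identical.

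*Mmp12*, the macrophage elastase, was at 0.420, 0.641 and 0.830 FPKM on day 10 and 2.32, 0.743 and 6.49 FPKM on day 14. Replicates 1 and 3 of day 14 were the highest samples, and replicate 2 lay within the day 10 range. The log2 difference was 1.74 (SE 0.70), with an unadjusted p of 0.0367 and an adjusted p of 0.461 from limma. *Lyz2*, the lysozyme of macrophages and neutrophils, was at 18.5, 71.9 and 83.3 FPKM on day 10 and 160.4, 6.35 and 454 FPKM on day 14, thus also highest in day 14 replicates 3 and 1. The defining macrophage markers *C1qa* (5.75, 0 and 11.8 FPKM) and *C1qb* (19.7, 0 and 40.4 FPKM) had the same order on day 14, although CD45+ cells had been gated out, and *Ptprc*, which encodes CD45, was at 2.99, 0.134 and 2.81 FPKM. The part of macrophages in the *Mmp12* values was not tested.

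**Figure D4:**
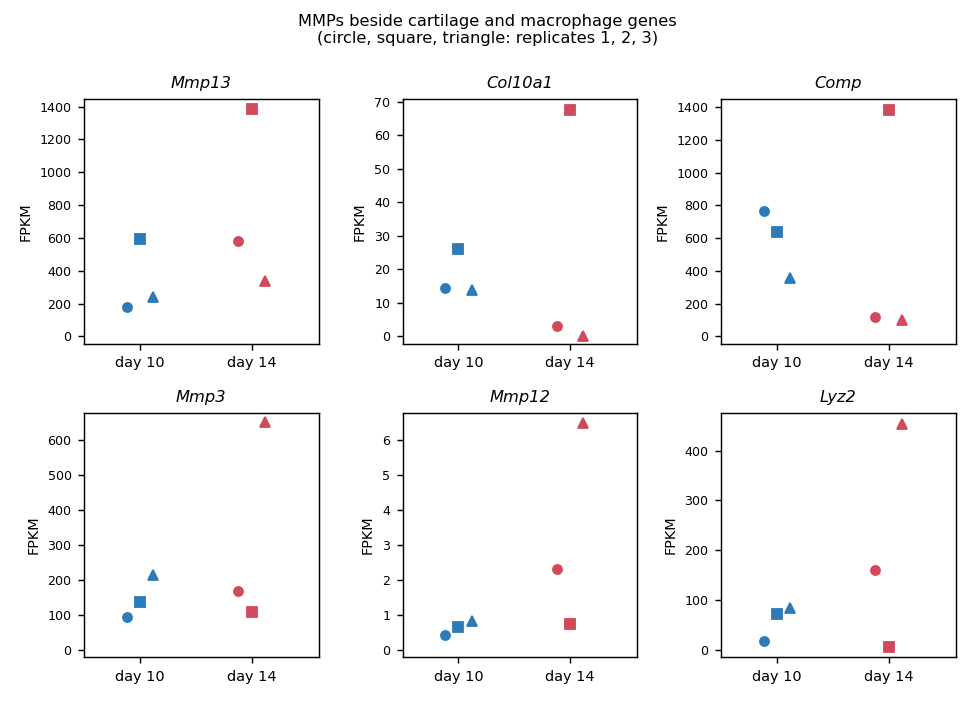
FPKM (linear axes) of *Mmp13* beside the cartilage genes *Col10a1* and *Comp* in the upper row, and of *Mmp3* and *Mmp12* beside the macrophage gene *Lyz2* in the lower row, with 1 symbol per sample (circle, square and triangle for replicates 1, 2 and 3). *Mmp13*, *Col10a1* and *Comp* are highest in day 14 replicate 2 (1384, 67.4 and 1383 FPKM), and *Mmp3*, *Mmp12* and *Lyz2* are highest in day 14 replicate 3 (650.1, 6.49 and 454 FPKM).

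The remaining genes of the cluster were low. *Mmp8*, the neutrophil collagenase, was at 0.900 to 2.82 FPKM with no difference between the day means to 2 decimals on the log2 scale (0.00, SE 0.51). *Mmp27* was at 0.376 to 1.66 FPKM and *Mmp20*, the enamel protease, at 0.329 to 0.710 FPKM. *Mmp1b* and *Mmp1a*, of the secreted collagenase group, were at no more than 0.395 and 0.225 FPKM and were listed at 0 in 2 and 3 samples, respectively. *Mmp1b* shares 157 exon bases with *Mmp12* on the opposite strand. *Mmp1a* is annotated as a polymorphic pseudogene and had too low a mean to be tested. *Mmp7*, matrilysin, was at 0.609, 0.271 and 0.192 FPKM on day 10 and was listed at 0 in every day 14 sample. Its highest value corresponded to about 2.5 reads, so no fold is given.

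**Figure D5:**
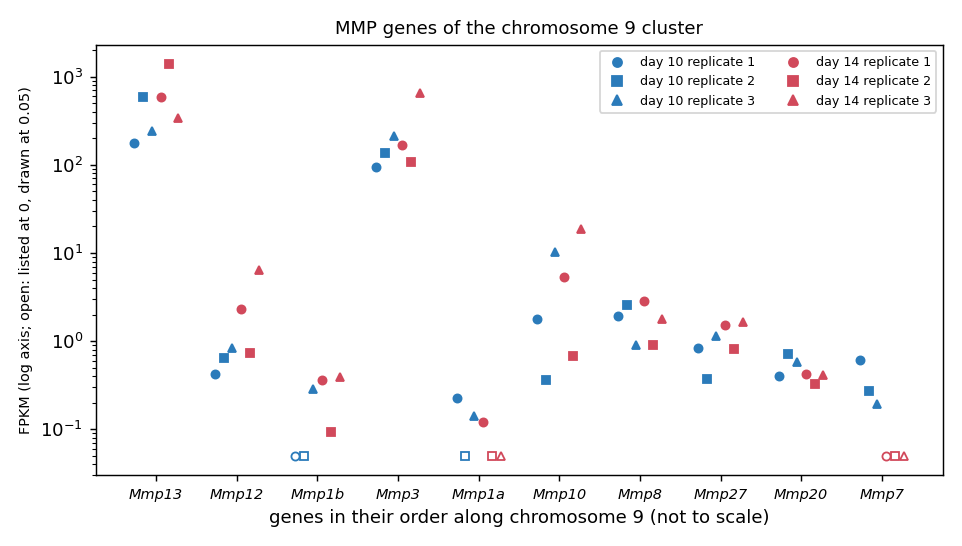
FPKM on a log axis of the 10 MMP genes of the chromosome 9 cluster in their order along the chromosome, with blue for day 10, red for day 14 and circle, square and triangle for replicates 1, 2 and 3. Open symbols are values listed at 0, drawn at 0.05. *Mmp13* and *Mmp3* stand above all others in every sample, and the highest sample is day 14 replicate 2 for *Mmp13* and day 14 replicate 3 for *Mmp3*, *Mmp10* and *Mmp12*.

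Among the MMPs outside the cluster, *Mmp11* was the most clearly separated. This stromelysin-3 is activated inside the cell by furin and was at 15.8, 18.4 and 17.5 FPKM on day 10 and 47.3, 26.0 and 27.9 FPKM on day 14. The 3 day 10 samples lay within 3 FPKM of each other and all day 14 samples were above them. The log2 difference was 0.91 (SE 0.23), with an unadjusted p of 0.00414 and an adjusted p of 0.31 from limma. It rested on about 38.8 to 107 estimated reads per sample, taken at the median length of its annotated transcripts (733 bases). A longer transcript would give more reads. *Mmp11* shares 155 exon bases with *Chchd10* on the opposite strand. *Chchd10* was lower than *Mmp11* and also wholly above on day 14 (0.551, 1.96 and 0 FPKM, then 2.07, 4.33 and 6.69).

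*Mmp19*, a secreted MMP of connective tissue and vessel walls, was at 25.9, 33.2 and 38.2 FPKM on day 10 and 51.4, 41.1 and 89.5 FPKM on day 14 (log2 difference 0.84, SE 0.29, unadjusted p of 0.018 and adjusted p of 0.396 from limma). The gap between the days was small, between 38.2 and 41.1 FPKM. *Mmp19* shares 789 exon bases with *Tmem198b* on the opposite strand, which was at 4.90 to 10.0 FPKM.

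*Mmp23* is a short MMP that lacks the hemopexin domain and is shed from the membrane when it is activated. It varied least of the abundant genes, at 216, 219.9 and 227 FPKM on day 10 and 233, 243 and 229 FPKM on day 14. Although the days did not overlap, the log2 difference was 0.09 (SE 0.15, adjusted p of 0.901 from limma), and it was −0.04 after upper quartile scaling and −0.05 after quantile normalization. *Mmp28* was at 0.212 to 1.41 FPKM and *Mmp21* at 0 to 0.662 FPKM, both with overlapping days.

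The 3 ADAMTS genes that remove the amino-terminal propeptide of procollagens were separated between the days in the FPKM as deposited, 1 with higher and 2 with lower values on day 14. Of all genes tested, 7.59% were wholly above and 6.67% wholly below. *Adamts2* overlapped under both other scalings, whereas *Adamts14* and *Adamts3* stayed wholly below. *Adamts2*, the main enzyme of this group for types I and III procollagen, whose promoter is shown above, was at 128, 147 and 175 FPKM on day 10 and 315, 183 and 286 FPKM on day 14. All day 14 samples were above all day 10 samples, replicate 2 by the least. Between the days the log2 difference was 0.77 (SE 0.24), with an unadjusted p of 0.0108 and an adjusted p of 0.36 from limma, and without day 14 replicate 2 it was 1.01.

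*Adamts14*, which cleaves the same propeptide, differed in the other direction, with 15.2, 15.1 and 6.80 FPKM on day 10 and 4.08, 5.34 and 6.79 FPKM on day 14. The days were barely apart, since the replicates 3 of both days had nearly the same value. Its log2 difference was −1.12 (SE 0.34), with an unadjusted p of 0.0106 and an adjusted p of 0.359 from limma. *Adamts3*, which acts mainly on type II procollagen, was at 1.99, 2.00 and 1.69 FPKM on day 10 and 1.25, 1.53 and 1.32 FPKM on day 14 (log2 difference −0.44, SE 0.31, adjusted p of 0.702 from limma).

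Within each sample *Adamts2* was the highest of the 3. The ratio of *Adamts2* to *Adamts14* was 8.41, 9.69 and 25.8 on day 10 and 77.3, 34.2 and 42.1 on day 14, and the ratio to *Adamts3* was 64.3, 73.5 and 103.9 on day 10 and 253, 119 and 216 on day 14. A ratio within a sample does not depend on a single factor that scales the sample, which quantile normalization is not. Since *Adamts2* was wholly above and *Adamts14* and *Adamts3* wholly below on day 14, neither ratio could overlap between the days. The ratios therefore add no evidence to the separate values. Their usual substrate chains were not separated, with *Col1a2* at 11114 to 21942 FPKM on day 10 and 10581 to 14525 on day 14 and *Col3a1* at 5271 to 9676 and 7900.1 to 15502.

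The ADAMTS proteases that cleave aggrecan, versican and related proteoglycans comprised 7 genes, of which *Adamts1* and *Adamts4* were the highest. *Adamts1* was at 124, 91.8 and 180.5 FPKM on day 10 and 185, 203 and 172 FPKM on day 14, and the days overlapped through the replicates 3 (log2 difference 0.55, SE 0.24, adjusted p of 0.503 from limma). *Adamts4*, aggrecanase-1, had 38.6, 55.9 and 58.8 FPKM on day 10 and 61.0, 61.8 and 87.1 FPKM on day 14, with a log2 difference of 0.46 (SE 0.22) and an adjusted p of 0.536 from limma. *Adamts5*, aggrecanase-2, was much lower, at 4.62, 6.72 and 5.90 FPKM on day 10 and 8.39, 8.41 and 12.5 FPKM on day 14. Both aggrecanases were separated between the days, and *Adamts5* (log2 difference 0.75, SE 0.24, unadjusted p of 0.013 and adjusted p of 0.373 from limma) stayed so under both other scalings.

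For *Adamts15*, day 14 replicate 2 lay far from the other samples of its day. This gene stood at 7.42, 9.18 and 8.21 FPKM on day 10 and 18.7, 4.06 and 19.8 FPKM on day 14, so 2 samples of day 14 were the highest and 1 the lowest of all 6. The log2 difference was 0.48 (SE 0.54) with all samples and 1.21 without day 14 replicate 2. *Adamts9* (0.971 to 2.77 FPKM), *Adamts20* (0.192 to 1.27) and *Adamts8* (0.0413 to 0.511) were low and overlapped between the days.

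*Adamts18*, a secreted protease with few known substrates, had 11.8, 6.61 and 6.21 FPKM on day 10 and 1.41, 8.12 and 0.670 FPKM on day 14. Its values in day 14 replicates 1 and 3 were the lowest and the value in replicate 2 was within the day 10 range. With all samples the log2 difference was −1.91 (SE 0.76, unadjusted p of 0.0351 and adjusted p of 0.459 from limma). Without day 14 replicate 2 it was −2.88 with an adjusted limma p of 0.0406, the one adjusted p under 0.05 that any gene of the families reached under any setting, and 76 of all genes passed in that fit. *Dlx5*, an OB transcription factor, had a like pattern, at 9.88, 8.19 and 7.56 FPKM on day 10 and 0.979, 9.84 and 1.01 FPKM on day 14. So did the chondrocyte marker *Col9a1*, at 22.6, 11.4 and 12.2 FPKM and then 0.950, 17.6 and 0.692. The OB marker *Sp7* did not, being wholly below on day 14. *Adamts16*, the nearest relative of *Adamts18*, was at 7.66, 3.28 and 10.8 FPKM on day 10 and 7.66, 7.85 and 12.3 FPKM on day 14. It did not share the pattern of *Adamts18*.

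*Adamts7* and *Adamts12*, which can cleave the cartilage protein COMP, overlapped between the days. *Adamts7* was at 3.57, 3.68 and 6.82 FPKM on day 10 and 5.32, 5.51 and 7.24 FPKM on day 14, and *Adamts12* at 6.97, 7.23 and 8.09 and at 9.87, 6.90 and 9.51 FPKM. The log2 differences were 0.41 (SE 0.29) and 0.22 (SE 0.20). *Comp* itself ran from 99.8 to 1383 FPKM.

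Of the ADAMTS proteases tied to fibrillin microfibrils, *Adamts10* was the highest, at 15.6, 15.6 and 12.1 FPKM on day 10 and 12.2, 18.5 and 12.9 FPKM on day 14 (log2 difference −0.01, SE 0.21). *Adamts17* was separated in the lower direction, with 2.98, 3.40 and 2.56 FPKM on day 10 and 1.88, 2.40 and 2.38 FPKM on day 14, a log2 difference of −0.41 (SE 0.27) and an adjusted p of 0.678 from limma. It rested on about 14.1 to 32.8 estimated reads per sample. *Adamts6* ran from 1.02 to 3.27 FPKM and overlapped. *Adamts19* (0.0756 to 0.595 FPKM) and *Adamts13* (0 to 0.150 FPKM), the protease of von Willebrand factor, had up to about 12.3 and 3.69 estimated reads in a sample, and *Adamts13* was not tested.

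Summed over each family, FPKM as deposited was higher on day 14 in all 3 families and the days did not overlap. The MMP sum was 2035.5, 2868 and 2456 on day 10 and 3096, 4141 and 3598 on day 14, the ADAMTS sum 372, 372 and 489 and then 639, 519.96 and 635, and the TIMP sum 1283, 1676 and 1551 and then 3056, 2149 and 2799.9. After upper quartile scaling the MMP and TIMP sums stayed apart, the latter with 1776 in day 14 replicate 2 against 1732 in day 10 replicate 2, and the ADAMTS sums overlapped through day 14 replicate 2 (429.7 against 524 in day 10 replicate 3). These sums were carried by a few genes. *Mmp2*, *Mmp14* and *Mmp13* made up 77.8% to 83.9% of the MMP sum on day 10 and 70.6% to 88.5% on day 14, and *Adamts1* and *Adamts2* made up 64.1% to 78.3% of the ADAMTS sum.

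The balance between inhibitors and MMPs was taken as the ratio of the TIMP sum to the MMP sum, which does not depend on a single factor that scales a sample. It was 0.631, 0.584 and 0.632 on day 10 and 0.987, 0.519 and 0.778 on day 14. Replicates 1 and 3 of day 14 were above and replicate 2 below every day 10 sample, so the ratio did not separate the days. Within the MMPs, the ratio of *Mmp13* to *Mmp3* was 1.89, 4.33 and 1.13 on day 10 and 3.48, 12.8 and 0.517 on day 14, so the highest and the lowest of the 6 were both on day 14.

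The samples were uneven in these genes. Of the 34 genes of the families with a mean of at least 0.5 FPKM, 17 had their lowest value in day 10 replicate 1, where 21.4% of all 13298 genes at that level did. None had its highest value in day 10 replicate 3 (9.64% of all genes did). Day 14 replicates 1, 2 and 3 held the highest value of 8, 9 and 11 genes (19.1%, 17.4% and 21.9% of all genes).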

How the data were processed

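RNA-seq values of sorted ECFP+ OBs of *Col2.3*-ECFP mice were compared between day 10 and day 14, with 3 samples each. According to the methods and the submitters' processing notes, cDNA was made with a SMART-Seq kit, 75-base single-end reads were mapped to mm10 with TopHat2 2.0.13, Bowtie2 2.2.3 and SAMtools 0.1.19, and the authors deposited FPKM per gene from Cufflinks 2.2.1. The gene annotation, strand setting and handling of reads shared by genes are not given in the sources used here. In 1 file, 25 symbols turned into dates were put back from the row order shared by all files.

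Differences were tested with limma 3.58.1 in R 4.3.3 (mean-variance trend) on log2(FPKM + 0.1) for genes with a mean over 0.1 FPKM, with Benjamini-Hochberg adjustment over all of them. This understates the change of low genes. Single genes were also compared by a two-sided exact permutation test. The code was tested on simulated data. Alternatives were pseudocounts of 1 and 0.01, a filter of 1 FPKM or none, upper quartile and quantile scaling, no trend, a replicate block and leaving out each sample. Depth was estimated from 1977 genes with a single transcript, where 74.9% to 79.5% of low values came within 0.1 of whole reads. It gives approximate reads only, at the median length of the annotated transcripts of a gene, and covers counting error.

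Values in every sample are given for all TIMPs, for genes averaging at least 5 FPKM and for genes averaging at least 0.5 FPKM whose days did not overlap. *Mmp7* and *Mmp12* were given in addition after their values were seen. Genes of the other lists are named where the days did not overlap, where they are the highest of a list or defining markers. *Plau*, *Bsg*, *Furin*, *Pcsk6*, *Acan*, *Comp*, *Col10a1*, *Col9a1*, *Col1a2*, *Col3a1* and *Dlx5* were chosen for their role or after their values were seen. The genes described and all lists were chosen with earlier results of these data known. Coordinates are from GENCODE vM21 (mm10), which held all 46 genes, and count from 1. The limma p-values set the difference between the days against the spread between samples of a day, drawn toward a trend over all genes. The exact p-values rest on how the 6 samples can be divided between the days.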

Additional observations from a re-analysis of the deposited data

How the results depend on the processing

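Of 391 values of the 28 genes given in every sample, each recomputed under another setting, 376 kept their direction and side of the threshold. Day 14 replicate 2 gave the 1 call gained (*Adamts18*, adjusted p of 0.0406 from limma without it). Another 14 values, of 6 genes, turned in sign, and the cause was not tested. These were log2 differences of *Mmp23* under upper quartile scaling (−0.044) and quantile normalization (−0.047), of *Mmp3* without day 14 replicate 3 (−0.063), of *Mmp10* without day 10 replicate 2 (−0.023) or day 14 replicate 3 (−0.0073), of *Adamts16* without day 10 replicate 2 (−0.0075), and of *Adamts10* without day 10 replicates 1 or 2 (0.053 and 0.054) or day 14 replicates 1 or 3 (0.11 and 0.068). *Timp4* turned with a pseudocount of 1 (0.0070), quantile normalization (0.022), and without day 10 replicate 1 (0.30) or day 14 replicate 2 (0.73). Over all samples left out in turn, the values ran from −0.063 to 1.23 for *Mmp3*, −0.19 to 0.11 for *Adamts10*, −0.0075 to 0.84 for *Adamts16*, −0.023 to 2.30 for *Mmp10* and −0.66 to 0.73 for *Timp4*.

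Genes over 2-fold higher numbered 3 with a pseudocount of 1 and 3 after quantile normalization, against 5 (6.46% of all genes after quantile normalization and 1.41% with a pseudocount of 1). Genes wholly above numbered 5 after upper quartile scaling and 6 after quantile normalization, against 11. Without a mean-variance trend, 2 genes were lower at an unadjusted limma p under 0.05, against 4 (3.17% of all genes). Leaving out 1 sample at a time gave 0 to 1 genes with an adjusted limma p under 0.05, 5 to 11 higher and 1 to 4 lower at an unadjusted p under 0.05, 1 to 11 over 2-fold higher, 2 to 5 over 2-fold lower, 11 to 18 wholly above and 4 to 8 wholly below. The shares of all genes ran, in that order from the higher genes on, from 3.0% to 7.01%, 1.84% to 8.17%, 4.23% to 9.71%, 6.96% to 17.2%, 9.52% to 15.3% and 8.97% to 19%. The highest counts of 2-fold higher and of separated genes came without day 14 replicate 2, the lowest of 2-fold higher and of higher genes at the unadjusted p without day 10 replicate 1.

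The correlations of deviations between same-numbered samples of the 2 days were 0.058, −0.0058 and 0.0887, and those between other samples ran from −0.0978 to 0.0202. All were small, and they do not settle whether the replicate numbers pair the samples. With the replicate block, 12 genes were higher (6.15% of all genes) and 4 lower (4.76%) at an unadjusted limma p under 0.05, and 0 had an adjusted p under 0.05.

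With 3 samples a day, the exact test could not go below 0.1. Genes below about 0.661 FPKM rested on few reads, and FPKM without stated scaling between samples left the direction of small differences, such as that of *Mmp23*, dependent on the scaling.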

Other observations

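Of 34 genes that activate, inhibit or take up these proteases or break down matrix beside them, 33 were tested. In FPKM as deposited, all day 14 values lay above all day 10 values in 14 and below them in none. Of all genes, 7.59% were wholly above and 6.67% wholly below. None of the 33 had an adjusted limma p under 0.05, and their median log2 difference was 0.44 on the scale of FPKM + 0.1. Whether these 14 stay separated under the other scalings was not examined. Of the 11 MMP, ADAMTS and TIMP genes wholly above, 5 did. *Plat*, tissue plasminogen activator, was at 123, 152 and 228 FPKM on day 10 and 396, 262 and 439 FPKM on day 14, a log2 difference of 1.14 (SE 0.28) with an unadjusted p of 0.00334 and an adjusted p of 0.305 from limma. *Plau*, urokinase, was at 1.02 to 3.31 FPKM over both days. The membrane-bound MMP inhibitor *Reck* was at 8.01, 6.96 and 8.84 FPKM on day 10 and 10.8, 11.2 and 11.6 FPKM on day 14, and *Lrp1*, a receptor that takes up MMPs, ADAMTS proteases and TIMPs, was at 51.1, 67.5 and 63.6 and then 77.6, 79.0 and 104 FPKM. The thrombospondins *Thbs1* and *Thbs2*, the lysosomal proteases *Ctsb*, *Ctsl* and *Ctsk*, the sheddases *Adam9* and *Adam17*, *Htra1*, *Adamtsl1*, *Adamtsl4* and the low *Serpinf2* (at most 0.551 FPKM) were the other genes wholly above. *Bsg*, an MMP inducer, was at 426 to 448 FPKM on day 10 and 415 to 432 on day 14, and *Furin*, which activates membrane-type MMPs, was at 27.7 to 43.3 and 33.9 to 43.9 FPKM. A related convertase, *Pcsk6*, was lower on day 14 at 25.1, 63.4 and 10.9 FPKM than on day 10 at 169, 120.1 and 60.1 FPKM, with overlap through replicate 2 (log2 difference −2.04, unadjusted p of 0.00894 and adjusted p of 0.34 from limma).

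Among 14 matrix substrates, 2 were wholly above on day 14 in FPKM as deposited (7.59% of all genes) and 1 wholly below (6.67% of all genes). None had an adjusted limma p under 0.05, and their separation under the other scalings was not examined. *Fn1* (fibronectin) was at 956 to 1009 FPKM on day 10 and 1216 to 1471 on day 14, and *Bgn* (biglycan) at 1721 to 2259.8 and 2498 to 3472 FPKM. *Bcan*, brevican, a proteoglycan known from brain, was at 22.3, 17.3 and 8.49 FPKM on day 10 and 2.62, 6.90 and 1.82 FPKM on day 14, a log2 difference of −2.17 (SE 0.51) with an unadjusted p of 0.00247 and an adjusted p of 0.305 from limma. *Acan* (aggrecan) was at 20.3 to 25.9 FPKM on day 10 and 2.39, 45.8 and 3.28 FPKM on day 14.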
